A study of Arabidopsis thaliana with 18 samples.

Results

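ADP-glucose pyrophosphorylase (AGPase) makes ADP-glucose and pyrophosphate from glucose 1-phosphate and ATP, the committed step of starch synthesis in plastids. The enzyme of plants is a tetramer of small and large subunits. In Arabidopsis the main small subunit, which carries most of the catalysis, is APS1, and the large subunits APL1, APL2, APL3 and APL4 set how the enzyme responds to its activator 3-phosphoglycerate and its inhibitor phosphate. APL1 is known as the large subunit of photosynthetic leaves, and APL3 and APL4 as large subunits of sink tissues. Guard cells keep starch in their chloroplasts and turn it over as stomata open and close.

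The 5 genes were found on the Affymetrix ATH1 array by their locus identifiers, which are AT5G48300 for APS1 (listed as ADG1 in RefSeq), AT5G19220 for APL1, AT1G27680 for APL2, AT4G39210 for APL3 and AT2G21590 for APL4. Each was measured by 1 probe set of its own, of the 22746 on the array, and 22091 genes of the reference could be matched in all. The samples were guard cells dissected by hand from freeze-dried leaves of Col-0 wild type (WT) and of rgs1, a null mutant (rgs1-2) of RGS1, a regulator of G-protein signaling. Leaf strips 1 mm wide from plants of 8 to 10 weeks, grown with 8 h of light a day, were kept for 5 h in the light in KCl and CaCl2 with no sugars, with 150 mM mannitol, which served as the osmotic control, or with 150 mM sucrose. Each of the 6 groups of genotype and treatment had 3 samples, each of 50 to 100 guard-cell pairs from 1 plant, which makes 18 arrays. Values are log2 signals, and a log2 value of 4 was taken as the lowest level above background.

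Per array, 47.6% to 49.2% of the probe sets had a log2 value of 4 or more. The values were normalized between arrays, which makes such shares alike, so this is no check of the samples. RGS1 had log2 values of 8.17 to 10.37 in WT and 3.14 to 5.75 in rgs1. All 10 guard-cell marker genes were above background. The log2 of their summed signal was 15.55 to 16.24 with mannitol, 15.77 to 16.19 with sucrose and 15.81 to 16.01 without sugars. Markers of mesophyll, 9 of 9 measured genes, were also above background, and the log2 of their sum was 13.28 to 14.84 with sucrose, 14.10 to 14.96 with mannitol and 14.74 to 15.29 without sugars. Of the phloem markers, 0 of 3 reached 4 on 3 arrays or more, and SUC2 and SEOR1 each reached 4 on 1 array. Of the markers of pavement epidermis and trichomes 2 of 5 reached 4 on 3 arrays or more. These were ATML1, on 18 arrays with log2 values of 5.93 to 8.89, and TTG2, on 7 arrays. GL1 and GL2 reached 4 on 1 array each, and PDF1 on 0 arrays. The median log2 of the sum of these 5 genes was 7.47 without sugars, 7.71 with mannitol and 8.41 with sucrose. In limma, 2 of the 9 mesophyll markers, GAPA1 and FBA2, were lower with sucrose than without sugars, where 4.11% of all genes tested passed. All but CA1 and GAPB had an unadjusted p under 0.05 there, against 21.4% of all genes. Of the 9 estimates 0 were above 0, and the median log2 fold change was -1.31. Between sucrose and mannitol 0 of 9 passed, against 2.36% of all genes, and 3 had an unadjusted p under 0.05, against 18.7%. There 1 of 9 estimates was above 0, and the median was -0.22. The part of these markers in the results below was not tested. In a sample of many cells, more cells of a type and more RNA per cell cannot be told apart. One array, rgs1 with mannitol, replicate 3, had the lowest sum of guard-cell markers (15.55), and 3 of the 5 genes had their most distant value on it.

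Sucrose raised the transcript of the large subunit APL3, and of the 4 subunits that could be tested in all pooled comparisons only APL3 passed the threshold. It was 6.54-fold higher with sucrose than with mannitol and 3.64-fold higher with sucrose than without sugars. The small subunit APS1 was 2.67-fold and 2.46-fold higher by the means of the same arrays, without passing the threshold in either comparison. APL4 and APL2 did not pass in any comparison, and APL1 was at or near background on most arrays.

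**Figure D1:**
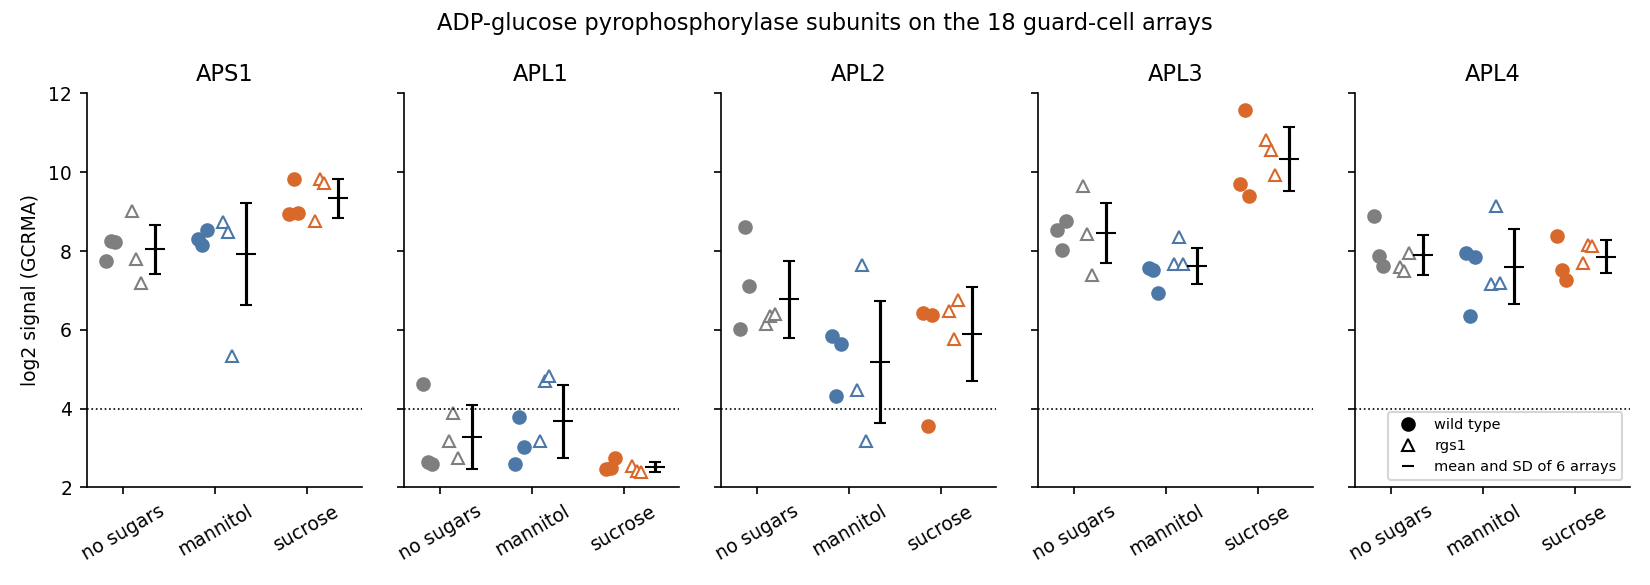
Log2 signal (vertical axis) of the 5 subunit genes on the 18 arrays, by treatment, with WT as filled circles and rgs1 as open triangles. Black marks are the mean and SD of the 6 arrays of a treatment, and the dotted line is the background level of 4. The 6 sucrose values of APL3 lie between 9.39 and 11.58, all above its mannitol values, and APL1 is above 4 on 3 arrays.

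APS1 is the small subunit that the large subunits pair with. With mannitol it had log2 values of 8.31, 8.16 and 8.54 in the WT samples and 8.73, 8.48 and 5.32 in the rgs1 samples. With sucrose the values were 8.94, 9.82 and 8.98 in WT and 8.76, 9.82 and 9.73 in rgs1. All 6 sucrose samples were above all 6 mannitol samples, although the nearest values were as close as 8.76 and 8.73. Without sugars APS1 had 7.74, 8.27 and 8.23 in WT and 9.02, 7.79 and 7.19 in rgs1, and only the highest of these lay within the range of the sucrose samples. The fitted log2 fold change, sucrose over mannitol, was 1.42 (95% interval 0.28 to 2.55, standard error 0.53, adjusted p = 0.164 in limma). An exact permutation test of the 6 against 6 values, two-sided and for this gene alone, gave p = 0.00216, the smallest value that this design allows. The low rgs1 sample with mannitol widened the spread, and without it the log2 fold change was 0.90 (limma, adjusted p = 0.206).

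APL3 encodes a large subunit known to respond to sugars in leaves. Its log2 values with mannitol were 7.57, 7.52 and 6.93 in WT and 7.66, 8.36 and 7.68 in rgs1. With sucrose they were 9.70, 11.58 and 9.39 in WT and 10.81, 10.55 and 9.93 in rgs1. Every sucrose sample was above every mannitol sample, and the nearest values were 9.39 with sucrose and 8.36 with mannitol. Without sugars APL3 had 8.52, 8.02 and 8.77 in WT and 9.65, 8.44 and 7.38 in rgs1, so that the mean lay between those of the other treatments, and the highest value, rgs1 replicate 1, was above the lowest sucrose sample. The treatment means of APL3 were 7.62 ± 0.45 for mannitol, 8.46 ± 0.76 for no sugars and 10.33 ± 0.81 for sucrose (SD, n = 6 each).

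Between sucrose and mannitol the log2 fold change of APL3 was 2.71 (limma, standard error 0.40, 95% interval 1.86 to 3.56, adjusted p = 0.00421). It was the only one of the 4 tested subunits that passed, where 259 of 10979 genes on the array passed (2.36%). By p-value it was in place 20 among these genes, and 1.64% of them had a larger change in either direction. The exact permutation test, two-sided, gave p = 0.00216. Replicate 3 was taken to be the plants grown months after the others. In replicate 3 alone, with 2 samples against 2, the log2 fold change was 2.36 (limma, adjusted p = 0.376), and in replicates 1 and 2 it was 2.89 (adjusted p = 0.0281). Leaving out replicate 2 from all groups ended the call, with a log2 fold change of 2.50 (adjusted p = 0.123).

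In the WT samples alone APL3 had a log2 fold change of 2.89 for sucrose over mannitol (standard error 0.67, adjusted p = 0.370 in limma), and in rgs1 alone it was 2.53 (standard error 0.48, adjusted p = 0.137). Groups of 3 gave few calls on the whole array, with 1 of 11131 genes in WT (0.00898%) and 3 of 11201 in rgs1 (0.0268%), and APL3 was not among them. In both genotypes all 3 sucrose samples were above all 3 mannitol samples, and an exact permutation test of 3 against 3 cannot go below p = 0.10. The difference between the genotypes in this response, tested as an interaction, was -0.35 on the log2 scale (limma, standard error 0.85, 95% interval -2.16 to 1.46, adjusted p = 1.00). For the interaction 0 of 12608 genes passed in limma (0%), and 499 had an unadjusted p under 0.05.

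APL1, the large subunit of leaf mesophyll, was above background on 3 of the 18 arrays and could not be tested in the pooled comparisons. These were WT without sugars, replicate 1, with a log2 value of 4.62, and rgs1 with mannitol, replicates 2 and 3, with 4.71 and 4.82. With sucrose its values were 2.40 to 2.74, below the background level in every sample and tightly grouped. With mannitol they were 2.59 to 4.82 and without sugars 2.59 to 4.62. Since 15 of the 18 values were under 4, no difference between the treatments is read as a result for APL1, and no test of it is given.

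APL2, a large subunit for which less is known, varied most among samples of a treatment. With mannitol its log2 values were 5.85, 4.31 and 5.65 in WT and 4.47, 7.66 and 3.18 in rgs1. With sucrose they were 6.42, 3.56 and 6.38 in WT and 6.48, 5.78 and 6.77 in rgs1. Without sugars they were 6.01, 8.61 and 7.11 in WT and 6.14, 6.35 and 6.40 in rgs1. The 3 treatments overlapped, and 1 sample with mannitol and 1 with sucrose were below 4. Sucrose over mannitol gave a log2 fold change of 0.71 (95% interval -0.81 to 2.24, standard error 0.71, adjusted p = 0.649 in limma), an interval wide enough to hold a fall as well as a rise. In replicates 1 and 2 alone it was -0.0090, and in replicate 3 alone 2.16.

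APL4 is the large subunit closest in sequence to APL3. It had log2 values of 7.94, 6.34 and 7.85 in WT and 7.16, 9.14 and 7.20 in rgs1 with mannitol. The sucrose samples had 8.38, 7.52 and 7.27 in WT and 7.71, 8.15 and 8.12 in rgs1. Without sugars the values were 8.88, 7.88 and 7.63 in WT and 7.61, 7.50 and 7.96 in rgs1. The 3 treatments overlapped, and the sucrose samples all lay between the lowest and the highest mannitol sample. Sucrose over mannitol gave a log2 fold change of 0.25 (95% interval -0.66 to 1.17, standard error 0.43, adjusted p = 0.805 in limma). The interval leaves out a rise of the size seen for APL3.

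**Figure D2:**
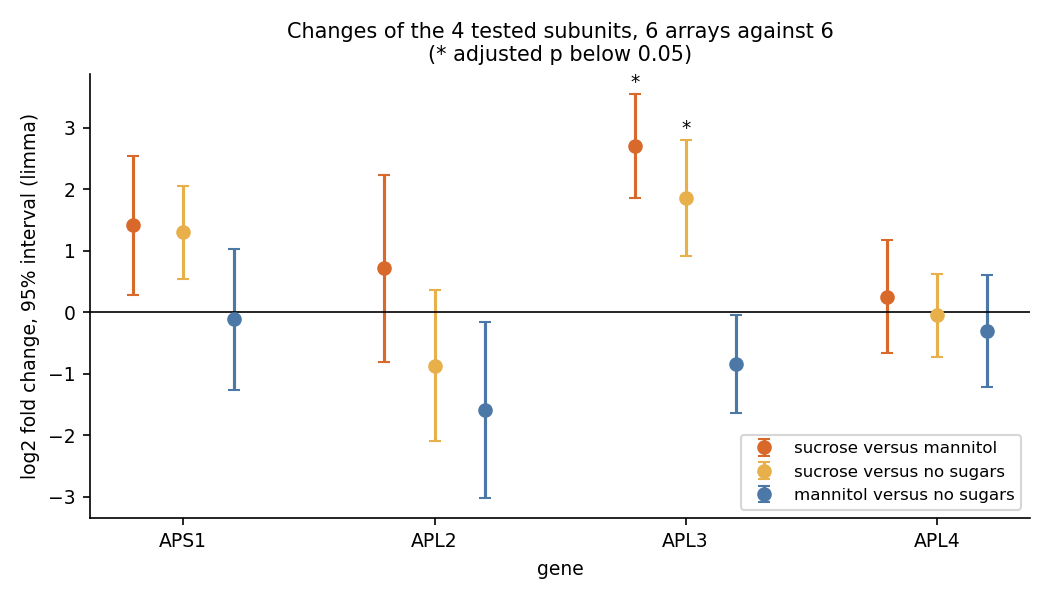
Log2 fold change with its 95% interval (limma, 6 arrays against 6) of the 4 tested subunits, in sucrose against mannitol, sucrose against no sugars and mannitol against no sugars. Stars mark an adjusted p under 0.05. APL3 has the 2 starred points, at 2.71 and 1.87, and the intervals of APL4 cover 0 in all 3 comparisons.

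Sucrose was also compared with no sugars, which shares the sucrose arrays with the comparison above. APL3 was higher by 1.87 on the log2 scale (limma, standard error 0.44, 95% interval 0.92 to 2.81, adjusted p = 0.0330), and 449 of 10937 genes passed in this comparison (4.11%). In 5 of the 6 sucrose samples it was above every sample without sugars (exact permutation test, two-sided, p = 0.00433). This call was less firm than that against mannitol. It was lost without any filter on the level (adjusted p = 0.0832) and when any 1 of 8 single samples was left out. These were WT sucrose replicate 2, rgs1 sucrose replicates 1 and 2, WT no sugars replicates 1, 2 and 3, and rgs1 no sugars replicates 2 and 3, with adjusted p-values from limma of 0.0511 to 0.0745. In replicate 3 alone the log2 fold change was 1.58 (adjusted p = 0.313), and in replicates 1 and 2 it was 2.01 (adjusted p = 0.0942).

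APS1 was 1.30 higher on the log2 scale with sucrose than without sugars (limma, standard error 0.35, 95% interval 0.55 to 2.06, adjusted p = 0.0530), just outside the threshold. The exact permutation test, two-sided, gave p = 0.00866. It passed without rgs1 sucrose replicate 1 (log2 fold change 1.42, adjusted p = 0.0472), and without rgs1 no sugars replicate 1 (1.50, adjusted p = 0.0422). In replicate 3 alone it was 1.65 and in replicates 1 and 2 1.13, without passing in either. APL2 had a log2 fold change of -0.87 (limma, adjusted p = 0.397) and APL4 of -0.05 (adjusted p = 0.940, 95% interval -0.73 to 0.63).

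Mannitol against no sugars asks what the osmotic control does on its own. In this comparison 30 of 10913 genes passed (0.275%), and 0 of the 4 tested subunits did. The adjusted p-values of these 4 from limma were 0.273 to 0.931, and 2 of them, APL2 and APL3, had an unadjusted p under 0.05. APL3 had a log2 fold change of -0.84 (limma, standard error 0.37, 95% interval -1.64 to -0.05, adjusted p = 0.292). One of the 6 mannitol samples was below all samples without sugars, and the exact permutation test, two-sided, gave p = 0.0390. The mannitol mean of APL3 was thus the lowest of the 3 treatments, and the step from mannitol to sucrose was larger than that from no sugars to sucrose. APL2 had the largest difference of the 4, with -1.59 (limma, standard error 0.67, adjusted p = 0.273), and 5 of its 6 mannitol samples, all but rgs1 replicate 2, were below all samples without sugars. APS1 and APL4 had log2 fold changes of -0.11 (adjusted p = 0.931) and -0.31 (adjusted p = 0.750).

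Over the 9 arrays of each genotype, with the treatment in the fit, rgs1 and WT did not differ beyond the spread in the 4 subunits tested. The log2 differences, rgs1 minus WT, were -0.24 for APS1, -0.08 for APL2, 0.27 for APL3 and 0.09 for APL4, with adjusted p-values from limma of 0.947 to 0.991. On the whole array 1 of 10853 genes passed (0.00921%). The 95% interval for APL3 was -0.42 to 0.97.

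Ordered by their means, the 6 groups of APL3 ran from WT with mannitol (7.34 ± 0.35, SD, n = 3) and rgs1 with mannitol (7.90 ± 0.40) over WT without sugars (8.44 ± 0.39) and rgs1 without sugars (8.49 ± 1.13) to WT with sucrose (10.23 ± 1.18) and rgs1 with sucrose (10.43 ± 0.46). Of the 5 pairs of neighbours in this order 4 overlapped, and the exception was rgs1 with mannitol over WT with mannitol. For APS1 both sucrose groups were again at the top, with 9.24 ± 0.50 in WT and 9.44 ± 0.59 in rgs1, and the lowest group was rgs1 with mannitol, with 7.51 ± 1.90. WT with sucrose was the only group of APS1 that did not overlap with its neighbour below, WT with mannitol (8.34 ± 0.19). For APL2 and APL4 all 5 neighbouring pairs overlapped.

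The levels of different probe sets cannot be set against each other, but a change in the difference between APL3 and another subunit on the same array shows unequal change. APL3 minus APL4 was 0.02 ± 0.83 (SD, n = 6) with mannitol, 0.55 ± 1.00 without sugars and 2.47 ± 0.98 with sucrose. The 6 sucrose samples (1.33 to 4.05) did not overlap with the mannitol samples (-0.91 to 1.18). Between sucrose and mannitol, APL3 gained 2.45 on the log2 scale (5.48-fold) over APL4 (standard error 0.52, exact permutation test, two-sided, p = 0.00216). No difference is given for APL1, which was under background in all sucrose samples. The gain over APL2 was 1.99 (standard error 0.97, exact p = 0.0606) and that over the small subunit APS1 1.29 (standard error 0.65, exact p = 0.0801), and both overlapped between the treatments. APL2 was under background on WT sucrose replicate 2 and rgs1 mannitol replicate 3. These arrays had the highest differences of their treatments, 8.01 and 4.50. The sucrose samples of APL3 minus APS1 were 0.20 to 2.06, and the mannitol samples -1.61 to 2.36, the highest of which was the rgs1 array with the low APS1 value.

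Against no sugars, APL3 gained 1.92 over APL4 (standard error 0.57, exact permutation test, two-sided, p = 0.00866) and 2.74 over APL2 (standard error 0.96, exact p = 0.00866). Over APS1 it gained 0.56 (standard error 0.34, exact p = 0.165). The gain over APL2 includes WT sucrose replicate 2, where APL2 was under background. The difference there was 8.01, and the next highest with sucrose was 4.77, so the size of this gain is uncertain. Between mannitol and no sugars the exact p-values for the same 3 genes were 0.260 to 0.383. These p-values are not adjusted.

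**Figure D3:**
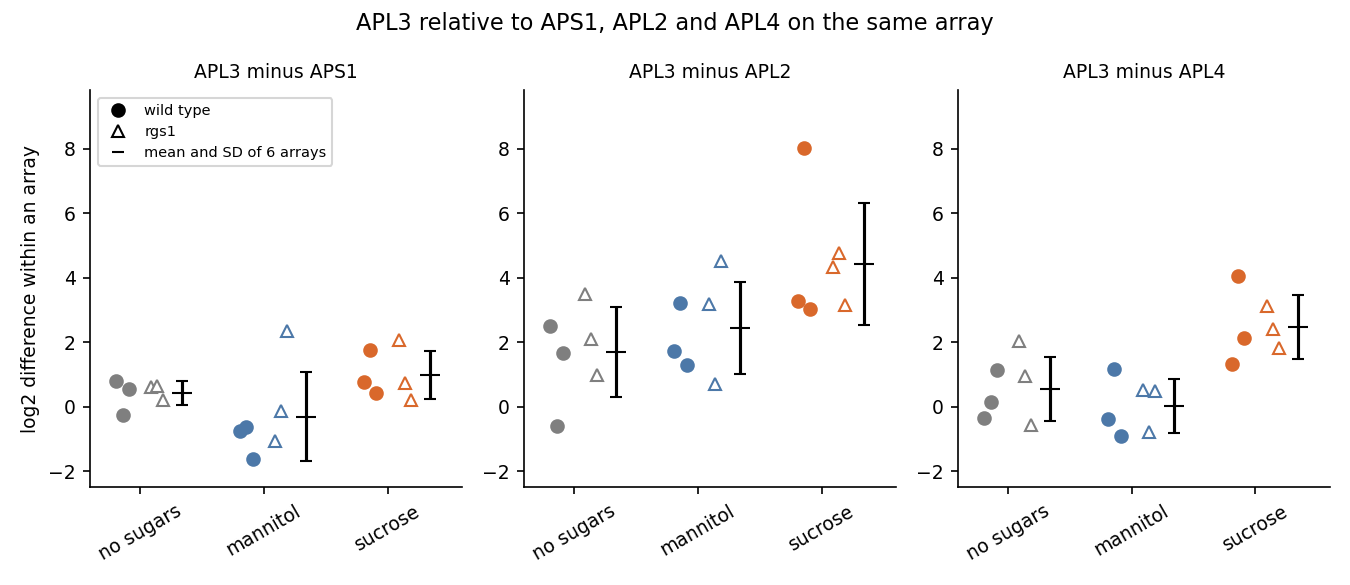
Difference in log2 signal between APL3 and APS1, APL2 or APL4 on the same array (vertical axis), by treatment, with WT as filled circles and rgs1 as open triangles. Black marks are the mean and SD of 6 arrays. For APL4 the sucrose samples (1.33 to 4.05) lie above all mannitol samples, and for APS1 the treatments overlap.

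Across the 18 arrays, APL3 and APS1 had a Pearson correlation of 0.64, and around the means of the 6 groups it was 0.40. APL2 and APL4 had 0.55 over the arrays and 0.52 around the group means. The correlation of APL3 with APL4 was 0.14 and with APL2 -0.01. All of these describe 18 arrays that share their amplification and normalization.

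The genes whose log2 values followed each subunit but APL1 most closely over the 18 arrays were sought among 12336 other genes. For APL3 they were Cpn60beta3, a chaperonin subunit of plastids (Pearson r = 0.89), AT5G60670 (0.88) and HDA3, a plant-type histone deacetylase of the nucleolus (0.87). Cpn60beta3 had 5.14 ± 0.84 with mannitol, 6.61 ± 0.96 without sugars and 8.58 ± 0.92 with sucrose, the same order of treatments as APL3. Around the group means the 3 correlations were 0.70, 0.47 and 0.39, so that for the last pair much of the likeness lay between the treatments.

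For APS1 the closest were AT5G51770 (0.93), AT5G20890 (0.89) and HDH, the histidinol dehydrogenase of histidine synthesis (0.88). All 3 were low on rgs1 mannitol replicate 3, with log2 values of 4.85, 4.25 and 6.04, and without that array the correlations were 0.88, 0.76 and 0.73. For APL2 they were HRB1 (0.85), a gene of red and blue light responses, AT5G56980 (0.82) and AT3G05810 (0.80). For APL4 they were HMGB4 (0.81), a chromatin protein, AT1G29660 (0.78) and AT1G16860 (0.76), the lowest of the leading correlations.

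Around AGPase, 72 genes were listed, of which 69 are on the array. The lists were starch synthesis, plastid translocators, regulation of AGPase and APL3, sucrose to hexose phosphates, and starch degradation. With sucrose against mannitol, 5 of the 53 tested passed, all higher with sucrose, against 2.36% of all genes tested in either direction. The 5 include GPT2, whose call is not read as a result for the reason given below. Of the 53, 19 had an unadjusted p under 0.05, a larger share than among all genes (2057 of 10979, 18.7%). The lists were chosen with earlier results of these data known, so a larger share is not a test of the pathway. Other genes of starch synthesis had 1 of 13 tested that passed, with a median log2 fold change of 0.78, where the median over all genes tested was 0.03. The gene was SBE2.1, a branching enzyme, at 9.30 ± 0.86 with sucrose against 7.23 ± 0.94 with mannitol, which is 2.08 higher on the log2 scale (limma, adjusted p = 0.0430). Against no sugars it was higher by 1.98 (adjusted p = 0.0349). APS2, a second small-subunit gene that was added for its relation to APS1, had log2 values of 3.36 to 6.91 with sucrose and 3.44 to 8.83 with mannitol (limma, adjusted p = 0.894).

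Of the plastid translocators 1 of 5 tested passed between sucrose and mannitol, against 2.36% of all genes tested, with a median of -0.06. It was GPT2, which carries glucose 6-phosphate into plastids. It had log2 values of 10.01 to 13.39 with sucrose and was below 2.1 in all samples without sugars. With mannitol it ranged from 1.85 to 10.55, and the high value, in WT replicate 2, was above the lowest sucrose sample. It met the filter on the level only with the help of its sucrose samples, and 3 of the 6 mannitol values and all values without sugars were under background. It passed in both comparisons with sucrose, but for this reason its calls are not read as a result and no fold change is given.

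Genes that act on AGPase or on APL3, such as the thioredoxins and NTRC that reduce the small subunit and the SnRK1 kinases, did not pass in any of the 3 comparisons in limma, and 1 had an unadjusted p under 0.05, TRXM2 between sucrose and no sugars. The 8 tested had a median log2 fold change of -0.28 between sucrose and mannitol, and all 8 estimates were below 0. The one with the largest difference was TRXM2, at 9.88 ± 1.17 with sucrose against 10.72 ± 0.56 with mannitol (log2 fold change -0.85, limma, adjusted p = 0.400). ABI4, a transcription factor of sugar and abscisic acid responses, was under background.

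Of the genes that lead from sucrose to hexose phosphates 2 of 12 passed, against 2.36% of all genes tested, with a median of 0.22. CINV2, a neutral invertase, rose from 5.69 ± 0.92 with mannitol to 7.91 ± 0.89 with sucrose, by 2.22 on the log2 scale (limma, adjusted p = 0.0346). UGP1, a UDP-glucose pyrophosphorylase that gives glucose 1-phosphate, rose from 8.50 ± 1.19 to 10.65 ± 0.64, a change of 2.15 (adjusted p = 0.0443). Both were also higher with sucrose than without sugars, by 1.62 (adjusted p = 0.0390) and 2.07 (adjusted p = 0.0138).

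Among genes of starch degradation 1 of 15 passed between sucrose and mannitol, against 2.36% of all genes tested, and the median was 0.89. ISA3, a debranching enzyme, rose from 5.98 ± 2.09 with mannitol to 10.24 ± 1.39 with sucrose, by 4.26 on the log2 scale (limma, adjusted p = 0.0279). It was higher by 4.30 against no sugars (limma, adjusted p = 0.0166). The genotypes differed in these values. In WT, mannitol gave 6.87 to 7.82 and sucrose 7.96 to 11.07. In rgs1, mannitol gave 2.19 to 6.21 and sucrose 10.45 to 11.43. The lowest rgs1 values, 2.19 for mannitol and 2.997 for no sugars, were under background, so the size of both changes is uncertain. PHS1, the plastid starch phosphorylase, had a log2 fold change of 1.74 against mannitol (limma, adjusted p = 0.0888) and was higher by 2.74 against no sugars (adjusted p = 0.00717). BAM9, a beta-amylase-like protein, was lower with sucrose than without sugars, by a log2 fold change of -1.85 (limma, adjusted p = 0.0424), and had -0.38 against mannitol (adjusted p = 0.739). Mannitol against no sugars gave 1.00 for PHS1 (limma, adjusted p = 0.286) and -1.47 for BAM9 (adjusted p = 0.0942). Against no sugars 6 of 52 tested genes of these lists were higher and 1 was lower, against 4.11% of all genes that passed. The 6 again include GPT2, whose call is not read as a result. Of the 52, 19 had an unadjusted p under 0.05, a larger share than among all genes (2344 of 10937, 21.4%). The limit from the choice of the lists holds here too. Between mannitol and no sugars 0 of 50 passed in limma, against 0.275% of all genes. Of these 50, 7 had an unadjusted p under 0.05, a share near that of all genes (1718 of 10913, 15.7%).

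**Figure D4:**
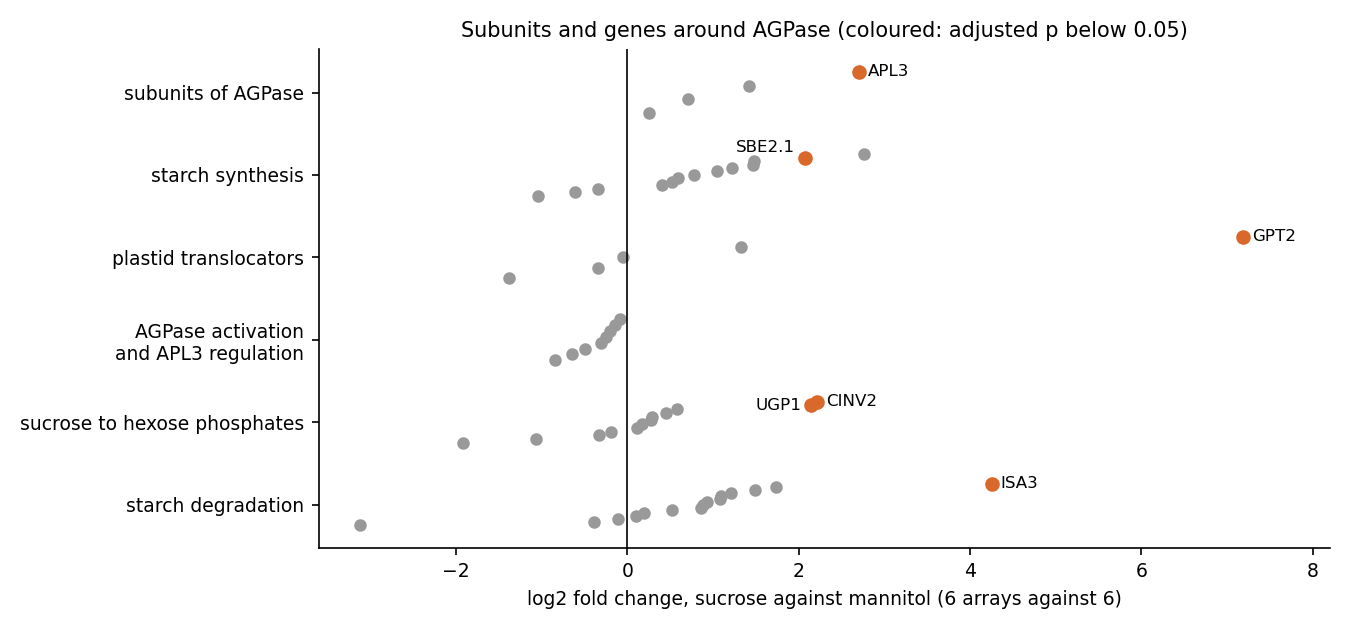
Log2 fold change between sucrose and mannitol (horizontal axis) of the tested AGPase subunits and of the tested genes of 5 lists, 1 point a gene. Coloured and named points have an adjusted p under 0.05. APL3 is at 2.71, near SBE2.1 at 2.08 and UGP1 at 2.15, and GPT2, with 3 of its mannitol values under background, is farthest to the right.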

How the data were processed

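RNA of the dissected guard cells had been amplified in 2 rounds (MessageAmp II, T7 RNA polymerase) and hybridised to ATH1 arrays. The deposited values are log2 signals per probe set, which the authors made from scans in MAS 5.0 and with GCRMA, a method of background correction, normalization between arrays and summary over the probes. The genome build is not given in the sources used here. Values under 4 were taken to be at background and were not read as levels. Array number limits the precision, as each group holds 3 plants. No further normalization was applied. The value table of the series held the same values in every cell.

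Probe sets were matched by locus identifier. Only genes with a log2 value of 4 or more on a number of arrays no lower than the size of the smaller group were tested. The tests were run in limma 3.58.1 (R 4.3.3, constant prior), with Benjamini-Hochberg adjustment over all genes tested and a threshold of 0.05 on the adjusted p. Pooled comparisons set 6 arrays of both genotypes against 6. The fits were tested on simulated data. Exact permutation tests, two-sided, and plots were made with Python 3.11.15, scipy 1.17.1 and matplotlib 3.10.9. The tests covered 15 differences of the 5 genes and 12 within arrays, and those of APL1, mostly under background, are not given. Alternatives changed the filter, the normalization, the prior, the terms of the fit and the samples.

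The genes and gene lists were chosen with earlier results of these data known. Named were the 5 subunits, each gene of the 5 pathway lists with an adjusted p under 0.05 in a pooled comparison or else the list's member with the largest change between sucrose and mannitol, and for each subunit the 3 other genes with the highest Pearson correlation over 18 arrays among genes at 4 or more on at least 3 arrays. Those for APL1 are left out, as 15 of its 18 values were under 4. APS2, the marker genes and RGS1 were added outside this rule, and ABI4 and the groups of regulators were named after their values were seen. Of the list genes, 4 of 100 had no probe set of their own. Which plants were the later growth batch is not labelled, and replicate 3 was taken to be it.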

Additional observations from a re-analysis of the deposited data

Results flagged for a closer look

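Among 15 groups of 6 arrays of a treatment, 3 had a value far from the others by the gap to the nearest value over the range, where chance gives about 1 in 20. APS1 had 5.32 on rgs1 with mannitol, replicate 3, with the next value at 8.16. APL2 had 3.56, under the background level, on WT with sucrose, replicate 2, with the next value at 5.78. APL4 had 8.88 on WT without sugars, replicate 1, with the next value at 7.96.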

How the results depend on the processing

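Over 26 alternatives and leave-outs, 360 of 390 values of 15 subunit differences kept direction and threshold side, or moved within the spread between samples. Only 2 of the 15 were calls, both of APL3, and 16 values lost them, mostly between sucrose and no sugars. Replicate 3 is called the later batch here, although no label states it. For APL3 between sucrose and mannitol the call was lost within the later batch alone (log2 fold change 2.36, limma, adjusted p = 0.376). That alternative has fewer samples and was chosen after seeing the data. The call was also lost without replicate 2. Leave-outs gave 2.46 to 2.90, with adjusted p-values of 0.00451 to 0.123. For APL3 between sucrose and no sugars the log2 fold change stayed at 1.87 with no filter (adjusted p = 0.0832) and with a replicate block of replicate number and genotype (adjusted p = 0.0635) and was 1.58 in the later batch. The leave-outs gave 1.38 to 2.21, with adjusted p-values of 0.0290 to 0.328. APS1 between sucrose and no sugars, 1.30 in the main fit, passed with a filter at 6 (1.30, adjusted p = 0.0459) and with an intensity trend in the prior (1.30, adjusted p = 0.0446), and leave-outs gave 1.06 to 1.72 (adjusted p of 0.0422 to 0.398). APL1 between sucrose and no sugars had a difference of -0.10 within the later batch, against -0.77 over all replicates. All its values in these treatments of the later batch were under background. Over all replicates 0 sucrose samples and 1 sample without sugars reached 4, so neither difference is read as a result. The sign turned when samples were left out for APL2 between sucrose and mannitol (-0.0090 to 1.73) and between sucrose and no sugars (-1.50 to 0.094), for APL4 between sucrose and no sugars (-0.16 to 0.14) and for APS1 between mannitol and no sugars (-0.32 to 0.41), none of which passed. The cause of these shifts was not tested.

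Genes called between sucrose and mannitol, 259, numbered 57 with no filter, 94 with the replicate block, 496 with all 18 arrays in the fit, 0 in the later batch (1062 at an unadjusted p under 0.05) and 6 to 307 in the leave-outs. Between sucrose and no sugars, 449 became 164, 202 with the block, 0 in the later batch (1712 unadjusted) and 27 to 524. Between mannitol and no sugars, 30 became 5, 13 with the block, 0 in the later batch (1182 unadjusted) and 0 to 65, with 0 without replicate 2 (1011 unadjusted). Counts moved by over 1.5 times between sucrose and mannitol without WT sucrose replicate 2 (94), rgs1 sucrose replicate 2 (94), WT mannitol replicate 2 (141), rgs1 mannitol replicate 2 (104) and rgs1 mannitol replicate 3 (108). Between sucrose and no sugars they did so without 7 single samples, WT sucrose replicate 2 (226), rgs1 sucrose replicate 2 (217), WT no sugars replicates 2 (264) and 3 (265) and rgs1 no sugars replicates 1 (263), 2 (270) and 3 (180). Between mannitol and no sugars they did so without 8, WT mannitol replicates 2 (16) and 3 (65), rgs1 mannitol replicate 3 (17), WT no sugars replicates 1 (46) and 3 (14) and rgs1 no sugars replicates 1 (16), 2 (19) and 3 (15). Samples with the same replicate number did not deviate together from their group means (correlations of -0.199 to 0.235 over 18 pairs, 1 above 0.1), so the number does not pair them. The block changed no other call of the subunits. A mean over probe sets was not run, since each subunit has 1 probe set. Few samples and the amplification limit what differences near background can show.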
